A study of Mus musculus with 12 samples.

Results

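Among 12 RNA-seq libraries of single mouse embryos at embryonic day 9.5 (E9.5), 3 carried far more alpha-fetoprotein (Afp) transcript than the others, and they are described here as the Afp-rich libraries. They were chosen by a measured value, the raw Afp read count: above 2000 in the Afp-rich libraries and below 1000 in the other 9, the Afp-poor libraries. The Afp-rich libraries were KO5, KO6 and WT2, that is 2 of 6 knockout (KO) and 1 of 6 wild-type (WT) libraries. The Afp-poor libraries were the other 4 KO and 5 WT libraries. Because a transcript of these same libraries made the split, every comparison below says which other transcripts go with Afp, and Afp itself is given as a description only.

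All 12 embryos were C57BL6/J at E9.5. The KO embryos were TRAF7-*/-*, homozygous for a Traf7 allele removed in the whole body by E2a-Cre, and WT embryos served as their controls. The asterisk marks the Traf7 line in which a deletion in the first intron of the linked gene 2310061I04Rik arose in 1 embryonic stem cell clone, so the KO embryos may differ from WT at that gene as well as at Traf7. The series title and design text speak of brain, whereas the labels of each sample name the embryo, and the labels were followed. How the embryos were dissected from their membranes, and which of them were littermates, is not given in the labels or the paper, and p-values therefore measure only the spread between these embryos.

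The visceral yolk sac lies around the midgestation mouse embryo, with an outer layer of endoderm and an inner layer of mesoderm that carries blood islands and vessels. Its endoderm takes up maternal proteins through large receptors on a brush border, digests them in lysosomes, and secretes serum proteins and lipoproteins toward the embryo before the liver does. Afp is the main serum protein of that layer, Apob is the scaffold of secreted lipoprotein particles, and Cubn (cubilin) with its partner Amn (amnionless) forms an endocytic receptor. The fetal liver bud and gut endoderm make some of the same products, and the factor HNF4 binds promoters of many of these genes.

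The promoters of the marker genes Afp, Apob and Cubn are shown because these genes define the pattern that the results turn on. They were read from RefSeq on GRCm38.p6 and run from 250 bases before the start of transcription to 50 bases after it, at chr5:90490464-90490763 on the plus strand for Afp, chr12:7977427-7977726 on the plus strand for Apob and chr2:13491827-13492126 on the minus strand for Cubn. They were searched on both strands for AAAGTCC, core letters of an HNF4 site, and any match would stand in capitals.
Afp: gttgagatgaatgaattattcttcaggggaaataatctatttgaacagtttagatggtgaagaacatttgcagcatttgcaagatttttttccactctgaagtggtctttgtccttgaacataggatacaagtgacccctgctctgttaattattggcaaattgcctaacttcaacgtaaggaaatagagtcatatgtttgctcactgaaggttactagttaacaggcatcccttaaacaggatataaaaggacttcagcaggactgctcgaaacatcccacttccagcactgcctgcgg
Apob: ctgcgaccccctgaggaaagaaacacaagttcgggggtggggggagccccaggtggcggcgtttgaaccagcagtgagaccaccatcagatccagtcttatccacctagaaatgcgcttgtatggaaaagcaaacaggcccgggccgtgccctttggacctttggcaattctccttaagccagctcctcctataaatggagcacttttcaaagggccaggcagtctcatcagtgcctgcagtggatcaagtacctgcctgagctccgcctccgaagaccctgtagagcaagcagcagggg
Cubn: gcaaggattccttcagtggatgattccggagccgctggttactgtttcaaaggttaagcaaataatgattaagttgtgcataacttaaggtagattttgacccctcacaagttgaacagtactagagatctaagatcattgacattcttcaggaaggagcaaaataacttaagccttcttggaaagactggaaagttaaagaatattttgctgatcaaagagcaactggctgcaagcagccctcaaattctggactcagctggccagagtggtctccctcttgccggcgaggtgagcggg
None of these windows held a match, which says only that the letters are not in them. Of the promoters of all 27025 genes in the RefSeq table, 4.25% held AAAGTCC on either strand.

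Totals ran from 17123377 to 21917571 counts in the Afp-rich and from 16675204 to 21586416 counts in the Afp-poor libraries, and values are given as CPM, the count per 1e6 counts of a library with TMM scaling. A count of 0 allows up to 3 counts, or 0.136 to 0.18 CPM, which covers counting error only. Traf7 was at 13.1 CPM in KO5 and 17.5 in KO6 against 119 in WT2, and at 17.1 to 19.3 CPM in the other KO libraries against 114.5 to 144 in the other WT libraries. The 2310061I04Rik gene stood at 1.14 to 2.03 CPM in 5 KO libraries and at 6.39 CPM in KO6, against 7.2 CPM in WT2 and 8.05 to 15.8 CPM in the other WT libraries, and whether KO6 carries the deletion on both alleles was not tested. The Afp-rich libraries had no count for the Y-linked genes Ddx3y, Eif2s3y, Kdm5d and Uty, and 3 of the 9 Afp-poor libraries (KO1, WT1 and WT3) had none either. Mitochondrial transcripts made 0.286%, 0.387% and 0.864% of counts in KO5, KO6 and WT2 and 0.432% to 0.936% in the Afp-poor libraries. Some libraries stood apart in other ways: a list of rear-body genes summed to 2.87 CPM in KO2, 8.70 in KO3, 119 in KO6 and 151 in WT5 against 235 to 353 CPM in the others, and heart muscle genes summed to 48.3 CPM in KO3 against 1171 to 1877 CPM elsewhere.

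Raw Afp counts were 3640 in KO5, 3818 in KO6 and 2658 in WT2. Among the Afp-poor libraries the highest count was 932 in WT6, the median was 421, and KO2 and KO3 had no Afp count. The values on either side of the threshold were therefore 2658 in WT2 and 932 in WT6. On the CPM scale Afp was at 165, 210 and 157 in KO5, KO6 and WT2, against 0 to 55.8 with a median of 22.7 in the Afp-poor libraries. In bulk libraries, fewer cells of a type and less RNA per cell cannot be told apart, so a level of Afp is not a number of endoderm cells.

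Beyond Afp, 37 of 14803 tested genes were higher in the Afp-rich libraries and 0 were lower, at an adjusted p of 0.05 or less in edgeR's quasi-likelihood F test with genotype as a covariate. This is 0.25% of tested genes in the upward and 0% in the downward direction. Before adjustment, p was 0.05 or less for 816 genes in the upward and 505 in the downward direction, and DESeq2 called 96 higher and 9 lower. Of the 37 genes, 27 rose at least 2-fold, which is 0.182% of tested genes, and their median log2 fold change was 1.76, against -0.003 over all tested genes. The largest fold changes were those of Apoa1 and Slc2a2, which lost their call in 9 and 5 of the 12 fits without one library. With no filter on low counts both also missed the threshold (adjusted p = 0.0559 and 0.0569, edgeR). The receptor pair Cubn and Amn was among the 37 as well, and lost its call in 0 and 1 of the fits without one library. Of the markers Afp, Apob and Cubn, Afp made the split, Cubn was called and Apob was not. Amn, Cdhr2, Slc23a1, Slc2a2, Soat2 and Spp2 passed the low-count filter, a minimal level in 6 libraries, only with the Afp-rich libraries counted. Their calls are among the 37 and are descriptions only. The number called without one library ran from 9 to 45, with 9 without WT2, 11 without KO6, 16 without KO5, 19 without WT4, 22 without WT3, 23 without KO4 and 24 without KO1. With the presence of Y-linked transcripts as a term, added after seeing the data, no gene was called and the 37 genes kept a median log2 fold change of 1.67, and within the 6 libraries with no Y-linked transcripts 3 genes were called with a median of 1.66 over the 37. Positive medians are largely given by the choice of the 37 genes in these same libraries.

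**Figure D1:**
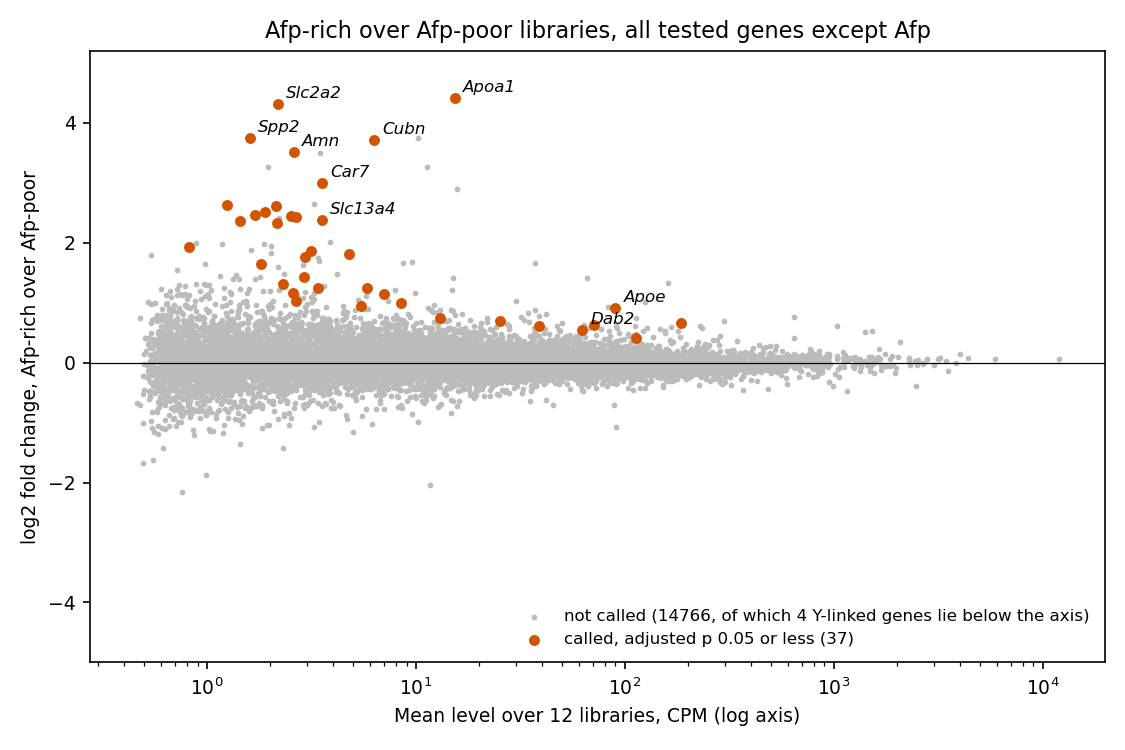
Log2 fold change of Afp-rich over Afp-poor libraries (vertical axis) against the mean level over 12 libraries in CPM (horizontal log axis) for each tested gene except Afp, with the 37 called genes in orange. All 37 lie above 0, with Apoa1 at 4.41 and Ezr at 0.41, and the 4 Y-linked genes lie below the axis.

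Among the 37 genes the largest fold change was that of a serum lipoprotein gene. Of 18 tested secreted and lipoprotein genes, 5 were called higher, against 0.25% of all tested genes. Apoa1, the main apolipoprotein of high-density lipoprotein, was at 48.3, 67.9 and 44.2 CPM in KO5, KO6 and WT2, against 0.0455 to 6.82 CPM with a median of 2.33 in the Afp-poor libraries. The groups did not overlap, and the lowest Afp-rich value stood above the highest Afp-poor value of WT6. Its log2 fold change was 4.41 ± 0.72 (SE; adjusted p = 0.047, edgeR). Apoa2, a smaller apolipoprotein of the same particles, had 5.71, 8.04 and 6.49 CPM in KO5, KO6 and WT2, against 0.407 to 2.57 with a median of 1.09 (log2 fold change 2.44 ± 0.36, adjusted p = 0.0143, edgeR). Apoe, a ligand of lipoprotein receptors that many embryonic tissues also make, had 184, 148 and 101 CPM in KO5, KO6 and WT2, against 57.7 to 88.6 with a median of 69.3. It changed by less, 0.91 ± 0.11 on the log2 scale, and was among the genes with the smallest adjusted p of the comparison (0.00722, edgeR). Mttp, which loads lipid onto Apob, had 18.8, 22.7 and 15.3 CPM against 8.78 to 13.7 CPM in the Afp-poor libraries and just passed the threshold (log2 fold change 0.75, adjusted p = 0.0491, edgeR). Spp2, a secreted phosphoprotein of liver and bone, had 4.40, 6.89 and 4.43 CPM against 0.0597 to 1.38 CPM (log2 fold change 3.74 ± 0.55, adjusted p = 0.0143, edgeR). It passed the low-count filter only with the Afp-rich libraries counted, so its call is a description.

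The marker Apob itself missed the threshold in edgeR on all 12 libraries. It was at 27.5, 52.6 and 20.9 CPM in KO5, KO6 and WT2, against 0.305 to 5.13 CPM with a median of 1.52 in the Afp-poor libraries, and it differed by 3.75 on the log2 scale (adjusted p = 0.057, edgeR). The retinol carrier Rbp4 had 45.8, 50.7 and 34.7 CPM in the same libraries against 0.591 to 11.7 CPM (adjusted p = 0.189, edgeR). The thyroid hormone carrier Ttr had 29.99, 43.7 and 28.1 CPM against 0.102 to 7.60 CPM (adjusted p = 0.211, edgeR). For each of these genes all Afp-rich values lay above all Afp-poor values, while the Afp-poor libraries spread widely, with KO2 and KO3 at or near the bottom of the range. With KO2 and KO3 left out, Apob, Rbp4 and Ttr passed in edgeR (adjusted p = 0.0127, 0.0203 and 0.0117), and limma voom on all 12 libraries also called them (adjusted p = 0.0067, 0.0324 and 0.0375), whereas DESeq2 called Apob and Rbp4 only. Over all alternatives the adjusted p ran from 0.00103 to 0.999 for Apob, from 0.0178 to 0.999 for Rbp4 and from 0.0117 to 0.999 for Ttr. Apom, another apolipoprotein, and the fibrinogen chain Fgg were placed likewise, with adjusted p of 0.071 and 0.0576 in edgeR. Per length, in FPKM, the Afp-rich means of Apoe, Afp, Apoa1 and Ttr were 66.7, 52.1, 42.8 and 27.6, against Afp-poor means of 33.3, 6.90, 2.09 and 3.01.

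Several further genes of this kind were too low in most libraries to be tested. Fga, which encodes another fibrinogen chain, had 6.43, 10.7 and 5.96 CPM in KO5, KO6 and WT2 against 0 to 1.74 CPM in the Afp-poor libraries. Apoa4 had 5.07, 6.72 and 4.25 CPM against 0 to 0.658 CPM. Both were above the whole Afp-poor range. Apoc2, in contrast, had no count in any library, which allows at most 3 counts in each. Kng1, a kininogen, was at 0.589, 0.661 and 0.59 CPM against 0 to 0.103 CPM.

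**Figure D2:**
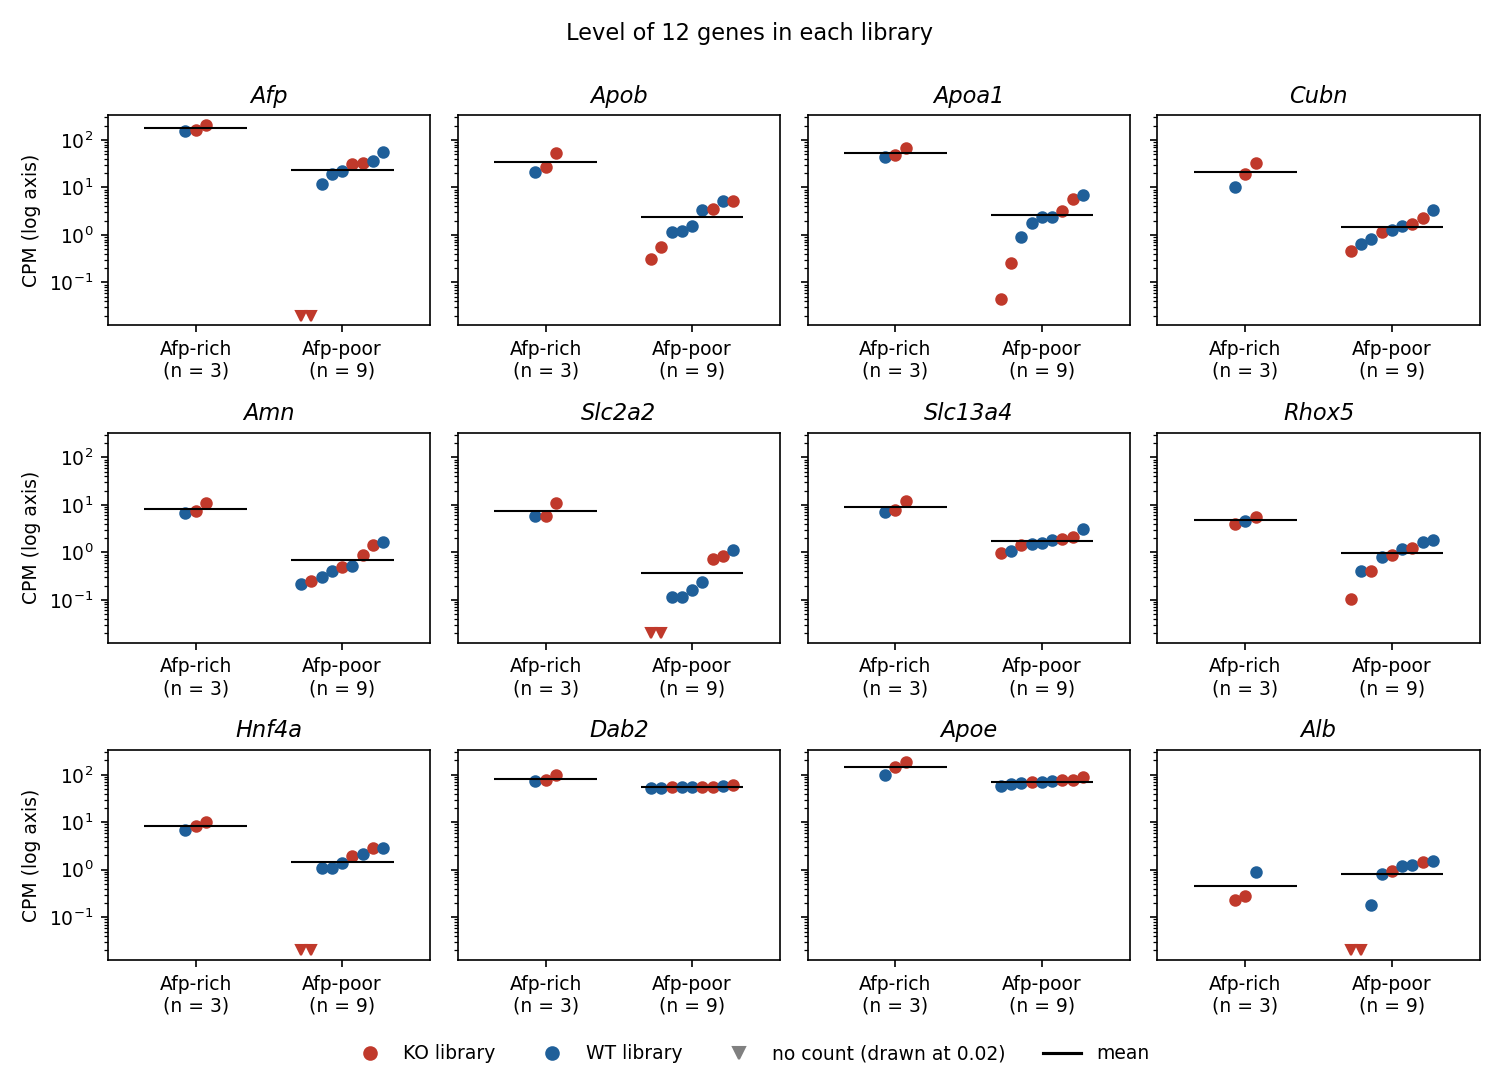
Level of 12 genes in each library in CPM (log axis), with the 3 Afp-rich libraries left of the 9 Afp-poor libraries in each panel, KO libraries in red, WT libraries in blue and the mean as a line. Triangles at the bottom are libraries with no count. Afp chose the classes. Apoa1, Cubn, Amn, Slc2a2, Slc13a4, Rhox5, Dab2 and Apoe were called, Apob and Hnf4a were not although the classes did not overlap, and Alb overlapped, at 0.227 to 0.885 CPM against 0 to 1.5 CPM.

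Of 16 tested genes of protein uptake at the brush border, 5 were called higher, against 0.25% of all tested genes: Cubn, Amn, Dab2, Vil1 and Cdhr2. Amn and Cdhr2 passed the low-count filter only with the Afp-rich libraries counted, so their calls and adjusted p are descriptions. Cubn had 18.9, 33.1 and 10.1 CPM in KO5, KO6 and WT2, against 0.458 to 3.29 CPM with a median of 1.29 in the Afp-poor libraries (log2 fold change 3.71 ± 0.46, adjusted p = 0.00902, edgeR). KO6 was the highest and WT2 the lowest of the Afp-rich libraries, and WT6 was the highest of the others. Amn, which carries Cubn to the membrane, had 7.43, 11.02 and 6.61 CPM against 0.216 to 1.68 CPM with a median of 0.5 (log2 fold change 3.51 ± 0.44, adjusted p = 0.00725, edgeR). Dab2, the adaptor that links such receptors to clathrin, had 75.8, 97.0 and 73.5 CPM against 51.7 to 61.3 CPM with a median of 55.1. Its difference was small, 0.54 ± 0.07 on the log2 scale, but the Afp-poor libraries lay close together (adjusted p = 0.00902, edgeR).

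The structure of the brush border was represented by Vil1 and Cdhr2. Vil1 (villin), which bundles actin in microvilli, had 5.84, 8.37 and 5.19 CPM in KO5, KO6 and WT2 against 0.153 to 2.21 CPM (log2 fold change 2.45 ± 0.41, adjusted p = 0.0271, edgeR). Cdhr2, a protocadherin that links microvilli, had 2.63, 5.67 and 2.54 CPM against 0.345 to 1.26 CPM (log2 fold change 2.36 ± 0.36, adjusted p = 0.0144, edgeR). Ezr (ezrin), which ties actin to the membrane in many epithelia, rose least of the 37 genes, by 0.41 ± 0.07, with 149, 125 and 133 CPM against 89.1 to 120 CPM (adjusted p = 0.033, edgeR). Pdzk1, a scaffold of brush border transporters, was not tested and had 3.35, 4.74 and 3.07 CPM against 0.091 to 0.826 CPM. Lrp2 (megalin), the large receptor that works with Cubn, overlapped between the classes, at 25.1, 22.04 and 16.9 CPM against 11.6 to 18.97 CPM (adjusted p = 0.464, edgeR).

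Membrane transporters made up 5 of the 37 genes by their Slc symbol, or 13.5%, against 252 of the tested genes, or 1.7%, a share counted after the genes were seen. Slc2a2, the low-affinity glucose transporter of liver and yolk sac, had 5.89, 11.1 and 5.78 CPM in KO5, KO6 and WT2, against 0 to 1.14 CPM with a median of 0.162, and no count in KO2 and KO3. Its log2 fold change was 4.31 ± 0.66 (adjusted p = 0.0234, edgeR), a fitted value that depends on how libraries at 0 are handled. Slc2a2, like Slc23a1 below, passed the low-count filter only with the Afp-rich libraries counted, so its call is a description. Slc13a4, a sulfate transporter, had 7.66, 12.3 and 7.08 CPM against 0.966 to 3.17 CPM (log2 fold change 2.38 ± 0.29, adjusted p = 0.00722, edgeR). Slc39a5, a zinc transporter, had 5.57, 6.12 and 3.95 CPM against 0.546 to 2.04 CPM (log2 fold change 2.33 ± 0.30, adjusted p = 0.00725, edgeR). The amino acid transporter Slc7a8 and the ascorbate transporter Slc23a1 rose by 1.87 and 1.92 on the log2 scale. All 5 transporters stood above the whole Afp-poor range in each Afp-rich library.

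Lipid and lysosome genes were called as well. Soat2, which esterifies cholesterol, had 3.22, 4.63 and 1.83 CPM in KO5, KO6 and WT2 against 0.153 to 1.37 CPM (log2 fold change 2.63 ± 0.46, adjusted p = 0.033, edgeR), so WT2 lay much nearer to the Afp-poor range than both KO libraries. Soat2 passed the low-count filter only with the Afp-rich libraries counted, so its call is a description. The lysosomal proteases Ctsh and Lgmn rose by 1.81 and 0.62 on the log2 scale. Lgmn had 60.4, 50.2 and 49.3 CPM against 28.4 to 38.5 CPM (adjusted p = 0.00902, edgeR). Folr1, a folate receptor, had 4.58, 7.88 and 4.37 CPM against 1.08 to 2.87 CPM (log2 fold change 1.43, adjusted p = 0.0345, edgeR).

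Transcripts known as marks of extraembryonic tissue were among the called genes. Rhox5, an X-linked homeobox gene active in extraembryonic lineages of the mouse, had 4.03, 5.51 and 4.66 CPM in KO5, KO6 and WT2, against 0.102 to 1.80 CPM with a median of 0.895 (log2 fold change 2.51 ± 0.45, adjusted p = 0.0345, edgeR). With the presence of Y-linked transcripts as a term, Rhox5 stood at 1.98 and was not called (adjusted p = 0.837, edgeR). Cldn2, a tight junction protein of leaky epithelia, had 4.21, 7.93 and 4.90 CPM against 0.153 to 1.86 CPM (log2 fold change 2.62 ± 0.39, adjusted p = 0.0143, edgeR). Spink1, a trypsin inhibitor, rose by 2.46 ± 0.41 on the log2 scale. Trap1a and S100g, a calcium-binding protein, were not tested, at 3.81, 3.64 and 2.24 CPM and at 7.43, 7.77 and 4.78 CPM, against at most 0.619 and 1.5 CPM in the Afp-poor libraries.

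Of the 37 genes, 17 lay outside the 332 distinct genes of all lists used here. Car7, a carbonic anhydrase, had 8.11, 15.0 and 7.85 CPM in KO5, KO6 and WT2 against 0.5 to 2.51 CPM with a median of 1.15 (log2 fold change 2.99 ± 0.36, adjusted p = 0.00722, edgeR). Cyp2s1, a cytochrome P450, differed within the Afp-rich class, with 10.96 CPM in KO5, 3.97 in KO6 and 4.07 in WT2, against 1.34 to 2.33 CPM. The urea cycle enzyme Ass1 and the processed pseudogene Gm5424 both rose by 1.25 on the log2 scale. Because Gm5424 resembles Ass1, reads could have been shared between them and the split is uncertain. Gjb2, a connexin, rose by 1.17, and Fmo1, a flavin monooxygenase, by 0.95, with 8.74, 8.26 and 8.73 CPM against 3.39 to 5.26 CPM (adjusted p = 0.0102, edgeR). Further genes of this set rose by 1.31 (2810459M11Rik), 1.02 (P2rx4, an ATP-gated channel), 0.99 (Adamts17, a matrix protease) and 0.70 (Morc4), with Gipc2 and Prss35 at 1.65 and 1.15. Slc39a5, Slc7a8 and Ezr, given above, and Col1a2 and Col5a2, given below, were also on no list. Morc4 lies close to Cldn2 on the X chromosome, at chrX:139821632-139871677 against chrX:139800828-139811386 on GRCm38.

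The collagen genes Col1a2 and Col5a2 were called although they are typical products of mesenchyme. Col1a2 had 278, 215 and 256 CPM in KO5, KO6 and WT2 against 132 to 225 CPM (log2 fold change 0.66, adjusted p = 0.0345, edgeR). Col5a2 had 80.7, 79.4 and 115 CPM against 41.3 to 86.3 CPM (log2 fold change 0.62, adjusted p = 0.0275, edgeR). For both, the highest Afp-poor value was that of WT6 and lay inside the Afp-rich range. Gipc2 and the protease gene Prss35 overlapped in the same way, so 33 of the 37 genes were separated without overlap. Over all tested genes, 176 or 1.19% lay above every Afp-poor library in each Afp-rich library, and 77 or 0.52% lay below.

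**Figure D3:**
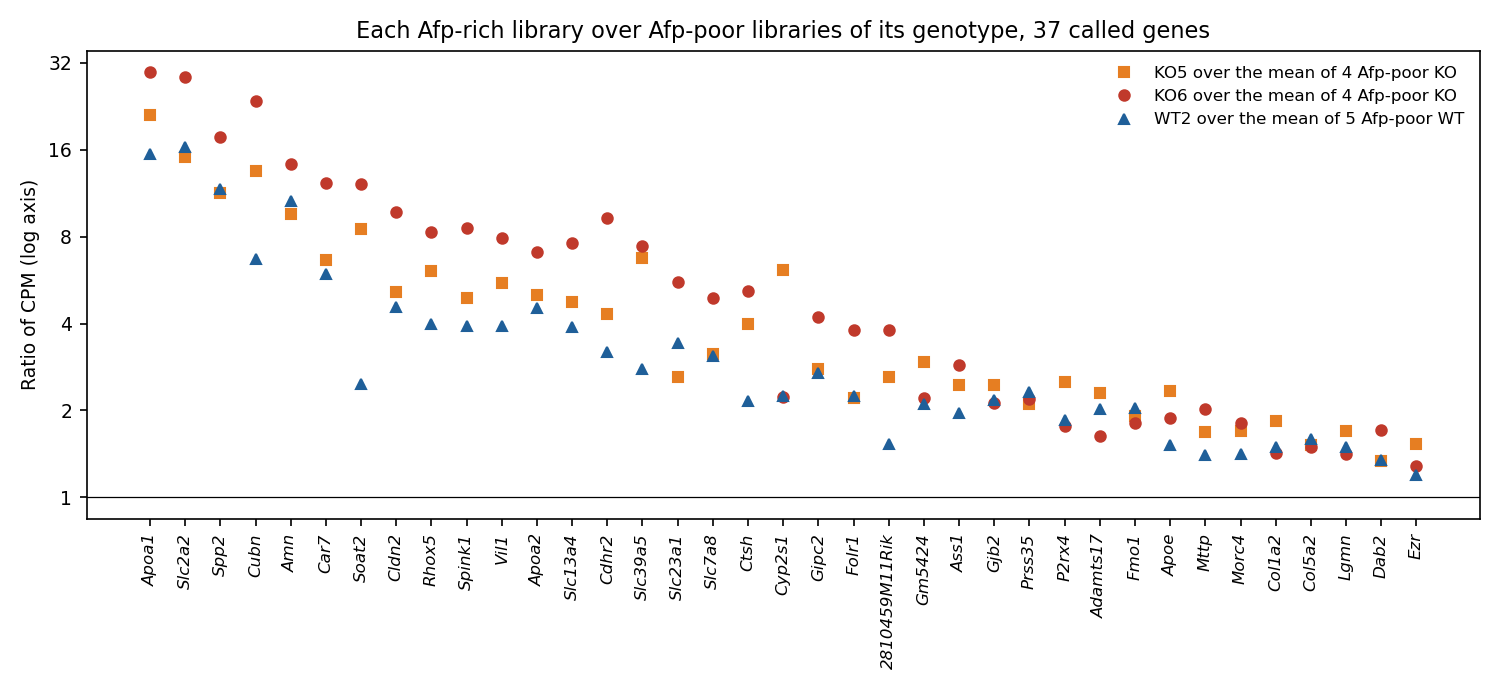
Ratio of CPM of each Afp-rich library to the mean of the Afp-poor libraries of the same genotype (vertical log axis) for the 37 called genes in order of fitted log2 fold change. KO6 tends to stand highest at the left, with ratios for Cubn of 13.5 in KO5, 23.5 in KO6 and 6.69 in WT2.

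Within the Afp-rich class, KO6 had the highest level in 24 of the 37 genes, KO5 in 10 and WT2 in 3. The summed level of the 37 genes was 1115 CPM in KO5, 1082 in KO6 and 987 in WT2, against 529 to 703 CPM in the Afp-poor libraries. The genes were chosen as higher in the Afp-rich libraries, so the gap between the classes follows from that choice. WT6, the Afp-poor library with the highest Afp count, also had the highest sum of its class and the highest level in 20 of the 37 genes. The sum is weighted by abundant genes such as Col1a2, at 225 CPM in WT6 and 132 to 166 CPM in the other Afp-poor libraries. WT1, with the lowest Afp count above 0 (196), had the highest level of its class in 11 genes, so the order within the class did not simply follow Afp. KO2 and KO3, which had no Afp count, were lowest among the Afp-poor libraries in 11 and 10 of the genes. In the interaction fit, where the Afp-rich over Afp-poor difference could differ between KO and WT, no gene was called (smallest adjusted p 0.976, edgeR; 237 upward and 190 downward before adjustment at p of 0.05 or less, and DESeq2 called 0). That fit compares 2 Afp-rich KO libraries with 1 Afp-rich WT library, which was assumed to vary like the others. Without KO5 or KO6 it sets 1 Afp-rich KO library against 1 Afp-rich WT library. Calls in those fits are differences of single libraries, and their number depended strongly on which library was left out.

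The genes of 5 lists on yolk sac endoderm (secreted and lipoprotein, uptake receptors, transport and metabolism, extraembryonic marks, and endoderm factors) held 115 distinct genes other than Afp, of which 81 were tested. The markers Apob and Cubn are among them, as is Amn. Of these, 20 were called higher and 0 lower, against the background of 0.25% given above, and the median log2 fold change was 0.62. The lists were drawn up with earlier results of these data known, and some called members passed the low-count filter only through the Afp-rich libraries, so the counts are a description. By list, 5 of 18 tested secreted and lipoprotein genes, 5 of 16 uptake receptors, 7 of 24 transport and metabolism genes, 3 of 9 extraembryonic marks and 0 of 14 endoderm factors were called. Of the 34 genes not tested, 13 stood above the whole Afp-poor range in each Afp-rich library, and 2 had no count at all. The same share over all untested genes was not counted, so the 13 are a description and cannot be set against a background.

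None of the 14 tested endoderm transcription factors was called in edgeR on all 12 libraries. With 0.25% of all tested genes called higher, a list of this size could hold no call at that share, so this says little. Hnf4a, which binds promoters of many serum protein genes, had 8.29, 10.4 and 6.85 CPM in KO5, KO6 and WT2 against 0 to 2.93 CPM with a median of 1.40, and KO2 and KO3 had no count (adjusted p = 0.386, edgeR). With KO2 and KO3 left out, Hnf4a was called, at 1.98 on the log2 scale (adjusted p = 0.0149, edgeR), and over all alternatives its adjusted p ran from 0.0149 to 0.999. Gata4 overlapped between the classes, as did Foxa2. Gata4 was at 48.3, 48.1 and 38.6 CPM against 6.51 to 51.0 CPM, and Foxa2 at 13.5, 15.0 and 14.0 CPM against 11.2 to 16.7 CPM. Of the called genes, 27 matched a RefSeq promoter by symbol, and AAAGTCC was found in the window of 1 of them (Spp2), or 3.7%, against 3.67% of 10801 tested genes. A match is a description of the letters and was not tested as a binding site.

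**Figure D4:**
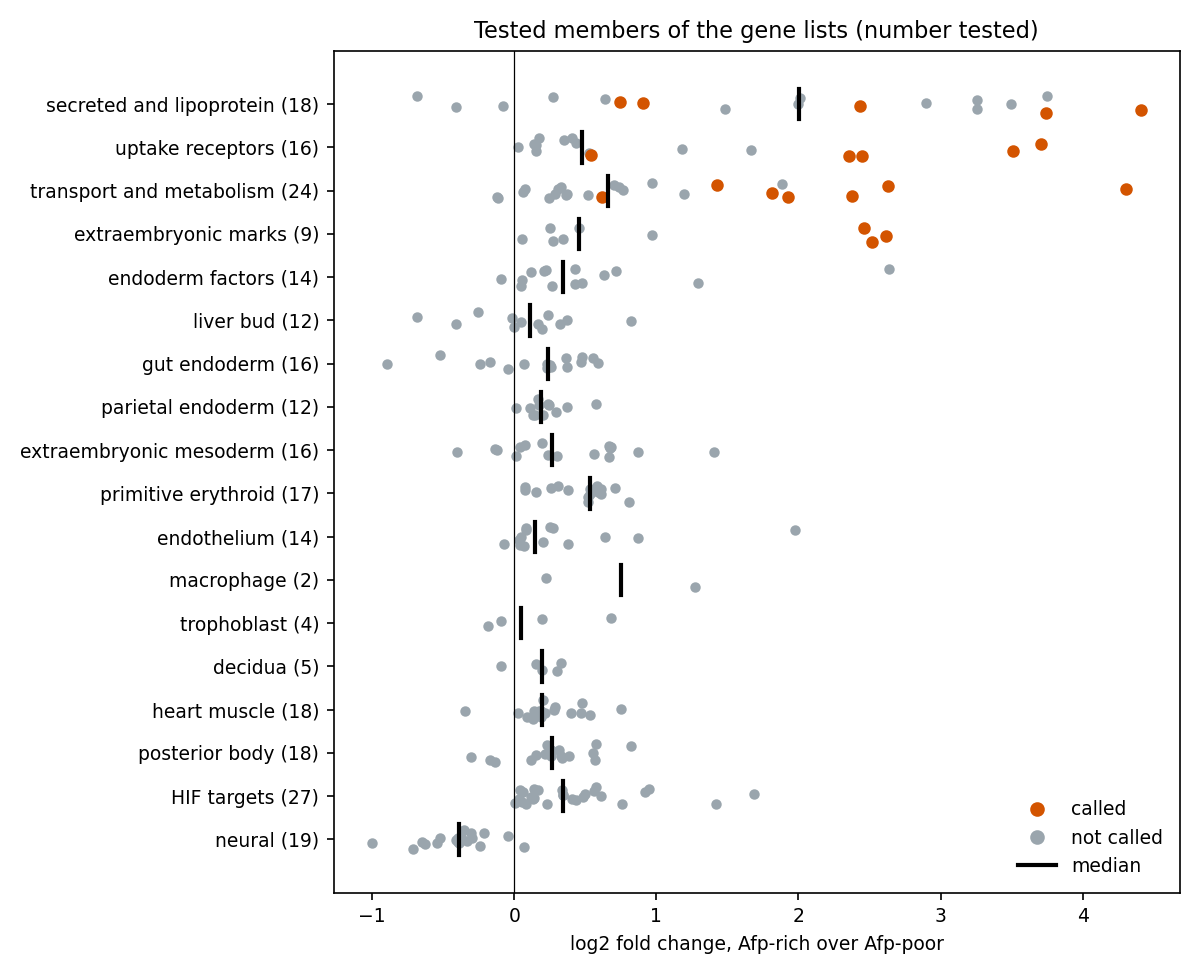
Log2 fold change of Afp-rich over Afp-poor libraries (horizontal axis) of the tested members of each gene list (rows, number tested in brackets), with called genes in orange and the list median as a bar. Called genes lie in 4 yolk sac endoderm lists, and in the neural list 18 of 19 tested genes lie below 0 with none called.

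No gene on the lists for other cell types was called. At the share of 0.25% called higher over all tested genes, lists this small would rarely hold a call, so their absence says little. Alb, the serum protein of liver, had 0.227, 0.276 and 0.885 CPM in KO5, KO6 and WT2 against 0 to 1.5 CPM with a median of 0.954 in the Afp-poor libraries. The 12 tested liver bud genes, 16 gut endoderm genes, 12 parietal endoderm genes and 16 extraembryonic mesoderm genes held no called gene, with list medians of 0.11, 0.24, 0.19 and 0.27 on the log2 scale. In the same order, 8, 11, 12 and 13 of them had a log2 fold change above 0, against 49.2% of all tested genes. Summed levels of liver bud genes were 470 to 644 CPM against 407 to 569 CPM, and those of parietal endoderm genes 1459 to 2197 CPM against 1309 to 1492 CPM, with KO5 highest in both lists. Extraembryonic mesoderm genes summed to 912 to 1093 CPM against 523 to 1033 CPM. The decidual markers Prl8a2 and Prl3c1, the trophoblast markers Prl3d1 and Tpbpa and the macrophage marker C1qa had no count in KO5, KO6 and WT2. The whole lists summed to 37.7 to 66.7 against 26.5 to 65.8 CPM for decidua (5 of 11 tested), to 50.8 to 73.7 against 21.0 to 74.1 CPM for trophoblast (4 of 14) and to 3.53 to 4.66 against 2.09 to 4.91 CPM for macrophages (2 of 13). The 14 tested endothelial genes had a list median of 0.14 on the log2 scale, and summed to 548 to 739 CPM against 488 to 611 CPM.

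No gene on the lists for blood, low oxygen or neural tissue was called either. Here too the share of 0.25% over all tested genes means that an absence of calls says little. All 17 tested primitive erythroid genes had a log2 fold change above 0, against 49.2% of all tested genes, with a median of 0.53. That median was above those of the uptake receptors (0.48), extraembryonic marks (0.45) and endoderm factors (0.35), so a rise was not particular to the yolk sac endoderm lists. Their sum was 5103 to 6582 CPM in the Afp-rich libraries against 2930 to 7214 CPM in the Afp-poor libraries, so the highest value was Afp-poor. The embryonic globin Hbb-y was at 1690, 2100 and 2017 CPM in KO5, KO6 and WT2 against 837 to 2404 CPM. Targets of hypoxia-inducible factor summed to 24530 CPM in KO5, 14650 in KO6 and 12100 in WT2 against 11660 to 20880 CPM, and all 27 tested members had a log2 fold change above 0 with none called. Neural genes summed to 644 to 817 CPM against 725 to 1224 CPM. The part of these other transcripts in the difference of the 37 genes was not tested.

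KO and WT libraries, the groups that the study compared with DESeq2, were also compared here in edgeR. With Afp class in the edgeR model, 0 genes were higher and 3 lower in KO than in WT libraries (Traf7, Klf2 and Lgals1), and the edgeR fit without class also called 0 higher and 3 lower. These counts are not those of the study. None of the 37 genes was among those 3. DESeq2 with class called 119 higher and 96 lower, and the edgeR fit with class called 15 genes without KO5 and 5 without KO6. No DESeq2 fit without class was made, so how far Afp class moves the study's result was not tested. Afp-rich libraries were 2 of 6 in KO and 1 of 6 in WT, and Apoa1, the called gene with the largest fold change, was at 0.0455 to 67.9 CPM over the 6 KO libraries and at 0.92 to 44.2 CPM over the 6 WT libraries.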

How the data were processed

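The authors deposited 1 table with 12 libraries in GRCm38 coordinates. Its count columns hold raw reads per gene from the authors' service pipeline, and its FPKM columns, also deposited by the authors, are scaled by gene length and library total. Its group means and the KO over WT fold changes and p-values of the authors' DESeq2 test were not used. No aligner, read counter or strand setting is named in the labels or the paper, so reads of overlapping genes may be shared. Of 54532 genes, 26752 had no count.

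Libraries were split by raw Afp count by a script. Counts were fitted with edgeR 4.0.16 (R 4.3.3) with genotype and Afp class, TMM factors, filterByExpr by genotype and a robust quasi-likelihood fit, which kept 14804 genes, 14803 beside Afp. Genes with a two-sided p of 0.05 or less after Benjamini-Hochberg adjustment were called, and a further count took only those with a log2 fold change of 1 or more in either direction. The code was tested on simulated data. FPKM was used only to set genes side by side. No pair of libraries agreed within sampling noise (lowest chi-square per gene over the pairs 4.61).

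The members, lists and tests were chosen with earlier results of these data known. Named genes were the marker genes, the most changed called genes without overlap between classes, up to 4 genes of each list by smallest p, untested yolk sac genes and Traf7 (1 marker is not reported here), and the remaining called genes were named after their values were seen. Alternatives were DESeq2 1.42.0 and its size factors, limma voom 3.58.1, other filters and terms, single omissions and subsets of libraries. The numbers of KO and WT libraries were checked for pairing.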

Additional observations from a re-analysis of the deposited data

Results flagged for a closer look

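For 57 genes, the KO and the WT libraries were each examined for a library whose gap to its nearest neighbour made up most of the range of its 6 libraries. Chance flags about 1 in 20 groups of unselected values, but these genes include Afp, which made the split, and were taken mainly because they were called higher in KO5, KO6 and WT2, so that rate is no yardstick here. Of these 114 groups, 26 were marked, 24 of them by WT2 at the top of the WT libraries, the only Afp-rich WT library, so the marks in WT2 follow from the choice of libraries and genes and are given as values. In WT2 Afp stood at 157 CPM, with 11.7 to 55.8 CPM in the other WT libraries. The serum and lipoprotein genes marked in WT2 were Apoa1 at 44.2 CPM, Apob at 20.9, Rbp4 at 34.7, Ttr at 28.1, Apoe at 101, Apoa2 at 6.49 and Spp2 at 4.43 CPM. The uptake and brush border genes were Cubn at 10.1 CPM, Amn at 6.61, Dab2 at 73.5 and Vil1 at 5.19 CPM. The transporters were Slc2a2 at 5.78 CPM, Slc13a4 at 7.08 and Slc23a1 at 1.59 CPM. The other genes marked in WT2 were Car7 at 7.85 CPM, Cldn2 at 4.90, Rhox5 at 4.66, Fmo1 at 8.73, Cyp2s1 at 4.07, Gjb2 at 3.60, P2rx4 at 3.66, Adamts17 at 14.3 and Hnf4a at 6.85 CPM.

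Among the KO libraries the mark fell on Cyp2s1 in KO5, at 11 CPM, with the other KO libraries at 1.34 to 3.97 CPM. In WT1, an Afp-poor library, Plat was the lowest of the WT libraries at 26.4 CPM, against 31.3 to 33.5 CPM in the others.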

How the results depend on the processing

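The number of genes called in Afp-rich over Afp-poor libraries depended on the processing. DESeq2 called 105 genes (96 higher, 9 lower, holding the 37), limma voom 111, no filter on low counts 85, a filter of 10 counts in at least 3 libraries 70, and log2 Afp CPM as a number 69 (58 higher and 11 lower, so 84.1% higher against 100% for the classes, with 15 of the 37 genes). No gene was called within KO or within WT libraries alone (0 each), and the WT fit has WT2 as its only Afp-rich library, assumed to vary like the others, so its 0 says little. In alternatives chosen after seeing the data, 0 genes were called with a Y-linked term, 3 in the 6 libraries with no Y-linked transcripts (1 of the 37) and 0 without KO3, KO5 and KO6, which likewise leaves WT2 alone. With KO2 and KO3 left out 34 genes were called (20 of the 37), and Apob, Rbp4, Ttr and Hnf4a passed the threshold. Without one library the count was 9 to 45, and Apoe, Car7, Cubn, Dab2, Slc13a4 and Slc39a5 were called in all 12 such fits. Each of 17 others was lost in at least 6: 2810459M11Rik, Apoa1, Ass1, Col1a2, Col5a2, Ezr, Folr1, Gipc2, Gjb2, Gm5424, Morc4, Mttp, P2rx4, Prss35, Rhox5, Soat2 and Vil1. The 37 genes kept a positive fold change in each alternative that gave a value. They were chosen as higher in these same libraries, so the kept sign largely follows from that choice and is a description. KO over WT gave 215 genes in DESeq2 (119 higher, 96 lower) and 2 to 15 without one library, and the interaction gave 0 to 1484 without KO5 or KO6. The numbers of KO and WT libraries did not pair them (correlations of deviations -0.316 to 0.285), and with the replicate block 0 genes were called for Afp class and 2 for genotype. The cause of these changes was not tested. At these depths a gene under 0.136 to 0.18 CPM cannot be told from 0.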

Other observations

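KO4 carried Y-linked transcripts at a sum of 116 CPM and Xist at 7.58 CPM, whereas the other 5 libraries with Y-linked transcripts had Xist at 0.591 CPM or less and the 6 libraries without them had 59.9 to 82.6 CPM. KO4 was Afp-poor, with Afp at 31.9 CPM.

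No tested gene passed the threshold downward in the edgeR fit of Afp class on all 12 libraries with genotype as a covariate. Other edgeR fits called 11 genes lower with log2 Afp CPM as a number and 1 lower without KO4. Commd6, which had the smallest p of the genes that were lower, had 14.5, 12.7 and 14.9 CPM in KO5, KO6 and WT2 against 16.6 to 22.7 CPM in the Afp-poor libraries (log2 fold change -0.53, adjusted p = 0.0975, edgeR). It, Lyve1 and Stab2 were named after their values were seen. The endothelial scavenger receptor genes Lyve1 and Stab2 lay above the Afp-poor range without a call, Lyve1 at 4.89, 4.90 and 2.77 CPM against 0.153 to 1.98 CPM (adjusted p = 0.203, edgeR) and Stab2, which was not tested, at 1.86, 1.38 and 1.12 CPM against 0.288 to 0.778 CPM.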
